A study of Mus musculus with 8 samples.

Results

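The microvilli of the intestinal brush border are built from a bundle of actin filaments and are tied to their neighbours by protocadherins, and 10 genes of this machinery are described here: Vil1, Myo1a, Espn and Eps8 of the actin core, Cdhr2 and Cdhr5 of the adhesion links, Ush1c, Anks4b and Myo7b of the complex beneath the links, and Tprn. They were taken by name from the 55114 genes of the deposited table. They were chosen with their difference between KO and control mice in these data already known, so that difference is given below as a description, without a test. The study asked how the RNA-binding protein MEX3A acts in intestinal stem cells (ISCs), and bulk RNA was sequenced from crypts, the epithelial pockets that hold those cells. Crypt fractions were shaken off the intestine after incubation with EDTA and passed through a strainer, without cell sorting. The KO group was 4 mice with a constitutive Mex3a deletion, which removes exon 1 and part of exon 2 in every tissue, and the Ctrl group was 4 littermates. All 8 mice were C57BL/6 and 8 weeks old, and each library came from 1 mouse.

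Enterocytes, the absorptive cells that leave the crypt and line the villus, carry a dense field of microvilli on their apical face. In each microvillus, villin (Vil1), espin (Espn) and plastin bundle the actin filaments, EPS8 sits at the tip and myosin-1a (Myo1a) ties the bundle to the membrane. The protocadherins CDHR2 and CDHR5 reach from tip to tip and draw the microvilli into clusters while the brush border is assembled. Inside the tip, harmonin (Ush1c), ANKS4B and the motor myosin-7b (Myo7b) hold these protocadherins to the actin, an arrangement that resembles the tip links of hair cell stereocilia in the inner ear. Taperin (Tprn) is known from the base of stereocilia and is a deafness gene. This machinery is built up as enterocytes differentiate, and its level in the stem cells themselves cannot be read from unsorted crypts.

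The read totals on genes were 20324184 to 24726221 in Ctrl mice and 23489180 to 30654105 in KO mice. Counts were scaled to CPM, reads on the gene as a share of the library, with TMM factors, and 16109 genes passed the filter on low counts, with all 10 members among them. Mex3a itself was at 12.4, 11.0, 16.0 and 13.7 CPM in Ctrl mice 1 to 4 and at 0.840, 1.09, 0.260 and 0.266 CPM in KO mice 1 to 4, so the genotypes did not overlap. Markers of crypt cells were present in every library. The summed level of 6 stem cell markers was 4390 to 5091 CPM in Ctrl mice and 3271 to 4035 CPM in KO mice, and that of 6 Paneth cell markers was 14841 to 43901 CPM against 7390 to 24091 CPM. Olfm4 alone was most of the stem cell sum, at 3605 to 4478 CPM in Ctrl mice and 2620 to 3366 CPM in KO mice. In bulk RNA, fewer cells of a type and less RNA per cell cannot be told apart.

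Because the members differed together between mice, the letters in front of their start sites were searched for elements named after factors of the enterocyte programme. RefSeq windows of 250 bases before to 50 bases after the start were at hand for 8 of the 10 members on GRCm38.p6, with 3 alternative starts for Espn. The promoters of 4 members are shown from 120 bases before to 10 bases after the start, on the plus strand, 5′ to 3′, because they hold matches just before or across the start site. They lie at chr1:74409264-74409393 (Vil1), chr13:54701343-54701472 (Cdhr2), chr7:120173738-120173867 (Anks4b) and chr2:25262478-25262607 (Tprn). Capitals mark the matches, and positions below are those of the first base of a match.
Vil1: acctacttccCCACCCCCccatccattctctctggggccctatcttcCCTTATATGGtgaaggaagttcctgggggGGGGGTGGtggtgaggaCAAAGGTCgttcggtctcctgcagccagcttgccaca
Cdhr2: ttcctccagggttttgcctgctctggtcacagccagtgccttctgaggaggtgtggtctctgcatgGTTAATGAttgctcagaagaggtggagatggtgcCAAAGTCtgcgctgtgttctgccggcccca
Anks4b: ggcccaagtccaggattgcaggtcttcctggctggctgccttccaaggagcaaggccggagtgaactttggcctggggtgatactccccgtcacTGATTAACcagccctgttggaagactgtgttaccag
Tprn: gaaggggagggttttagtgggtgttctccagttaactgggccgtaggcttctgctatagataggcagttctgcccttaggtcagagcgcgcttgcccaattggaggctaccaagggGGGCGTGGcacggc

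Vil1 held 4 matches: the KLF letters GGGNGTGG at 110 bases before the start on the opposite strand and again at 44 bases before it, a CArG box, the element of serum response factor, at 73 bases before it, and the HNF4 letters CAAAGGTC at 27 bases before it. Cdhr2 held the HNF1 letters GTTAATNA at 54 bases and the HNF4 letters CAAAGTC at 20 bases before its start. Anks4b held GTTAATNA on the opposite strand at 26 bases before its start, and Tprn held GGGNGTGG across the start itself, from 4 bases before it. Myo1a held GGGNGTGG just after its start and Espn held it, with the CDX letters TTTATNG, in 1 of its 3 windows, whereas the windows of Cdhr5 and Ush1c held none of the 6 elements on either strand. Among all 32851 windows, the share with a match was 17.6% for GGGNGTGG, 10.9% for TTTATNG, 4.44% for CAAAGTC, 2.54% for GTTAATNA, 1.63% for the CArG box and 1.17% for CAAAGGTC. Among the 13844 windows of tested genes these shares were, in the same order, 22.6%, 7.09%, 4.11%, 1.75%, 1.33% and 1.18%. No element was found in more than 4 of the 8 members, or in more than 4 of their 10 windows. A match describes letters in this window and says nothing of whether a factor binds there.

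In the crypts of Ctrl mice the members spanned a wide range of levels. Levels are compared between genes in FPKM, which divides the reads of a gene by its exon length and the library size, as deposited. Vil1 stood at 204 ± 41.3 FPKM (SD, n = 4) and Myo1a at 170 ± 20.2 FPKM, and the ranges of these 2 over the mice overlapped. The protocadherins followed, with Cdhr5 at 86.1 ± 16.5 FPKM and Cdhr2 at 62.5 ± 16.4 FPKM, again with overlapping ranges. Myo7b (44.3 ± 5.31 FPKM) and Ush1c (43.9 ± 2.04 FPKM), the motor and the scaffold under the links, had overlapping ranges. Below them, without overlap between neighbours, came Tprn at 23.6 ± 1.25 FPKM, the scaffold Anks4b at 17.1 ± 2.35 FPKM, Eps8 at 6.60 ± 0.830 FPKM and Espn at 2.74 ± 1.67 FPKM. The mean of Vil1 was thus 74.6 times that of Espn on the deposited lengths.

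The places of Eps8 and Ush1c in this order, and the ratio of Vil1 to Espn, rest on the length used. For Eps8, the deposited length of 12355 bases is the union of the exons of 13 annotated transcripts, against 4567 bases for its longest coding transcript. With the longest coding transcript of each gene as the length, Eps8 was at 17.8 ± 2.25 FPKM and overlapped Anks4b, Espn was at 4.90 ± 2.99 FPKM and Ush1c was at 55.0 ± 2.55 FPKM, within the range of Cdhr2 and above that of Myo7b without overlap. The mean of Vil1 was then 47.4 times that of Espn. In KO mice the order of the means was the same as in Ctrl mice on the deposited lengths, with Vil1 at 308 ± 93.1 FPKM, Espn at 5.22 ± 2.84 FPKM and overlapping ranges between each pair of neighbours from Vil1 down to Ush1c. Reads over the end of Vil1 and Ush1c may include reads of a neighbour on the opposite strand, since 49 exonic bases of Vil1 lie in Usp37 and 120 of Ush1c in Gm9860, and whether the counting used strand is not given in the sources used here.

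**Figure D1:**
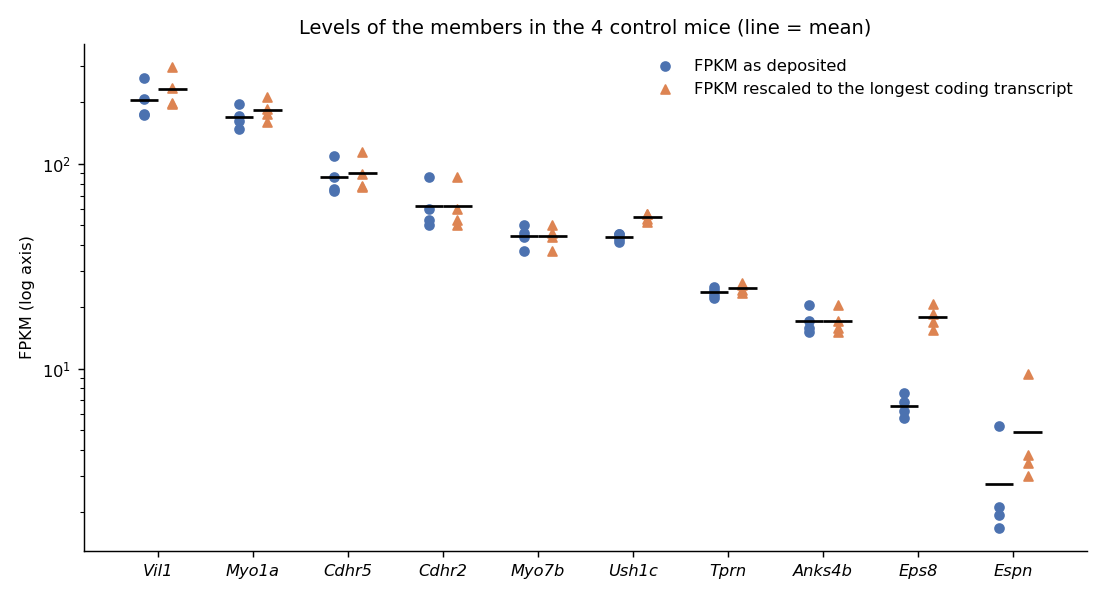
Levels of the 10 members in the 4 Ctrl mice in FPKM on a log axis, as deposited (circles) and rescaled to the longest coding transcript (triangles), with the mean as a line. Vil1 and Myo1a lie at the top, Espn at the bottom, and Eps8 moves up to the level of Anks4b when its length is that of the coding transcript.

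The difference between genotypes is described for the actin core first. Vil1, the bundling and severing protein of the core, was at 622, 626, 739 and 936 CPM in Ctrl mice 1 to 4 and at 747, 950, 1526 and 1168 CPM in KO mice 1 to 4. The log2 difference between KO and Ctrl was 0.59 ± 0.22 (SE), with Ctrl mouse 4 above KO mouse 1. Myo1a, the motor that links core and membrane, was at 613, 555, 636 and 736 CPM in Ctrl mice and at 633, 701, 1231 and 989 CPM in KO mice, a log2 difference of 0.49 ± 0.20. KO mice 1 and 2 were within the range of the Ctrl mice, and KO mice 3 and 4 were above it.

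Espn, an actin bundler that lengthens microvilli, had the lowest counts and the widest spread of the members. It was at 16.2, 17.6, 13.8 and 43.6 CPM in Ctrl mice and at 22.2, 28.6, 74.9 and 47.6 CPM in KO mice, and its log2 difference of 0.92 ± 0.45 had the largest standard error of the 10. Ctrl mouse 4 stood apart from the other 3 Ctrl mice and above KO mice 1 and 2. The difference was 0.52 without KO mouse 3 and 1.45 without Ctrl mouse 4. The coefficient of variation of Espn was 61.2% in Ctrl mice and 54.6% in KO mice, the highest of the members in both. Eps8, the tip protein, was at 71.5, 85.3, 76.9 and 95.0 CPM in Ctrl mice and at 75.2, 116, 127 and 109 CPM in KO mice, a log2 difference of 0.38 ± 0.16. For Eps8, KO mouse 1 alone fell within the Ctrl range.

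The protocadherins showed the largest differences after Espn. Cdhr5, which carries a mucin-like stretch and is the partner of CDHR2 in the link, was at 206, 237, 206 and 302 CPM in Ctrl mice and at 282, 361, 564 and 451 CPM in KO mice, a log2 difference of 0.80 ± 0.21. KO mouse 1 lay below Ctrl mouse 4, and the other 3 KO mice lay above all Ctrl mice. Cdhr2, the longer of the pair, was at 224, 210, 248 and 360 CPM in Ctrl mice and at 245, 329, 634 and 464 CPM in KO mice, a log2 difference of 0.68 ± 0.28. For Cdhr2, Ctrl mouse 4 was above both KO mouse 1 and KO mouse 2.

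The complex beneath the links differed less. Ush1c, the PDZ scaffold on which the complex is built, was at 168, 160, 176 and 177 CPM in Ctrl mice and at 167, 171, 229 and 194 CPM in KO mice, and its log2 difference of 0.16 ± 0.10 was the smallest of the 10. Its coefficient of variation in Ctrl mice, 4.49%, was also the smallest, and only KO mice 3 and 4 were outside the Ctrl range. Myo7b, the motor that carries the complex to the tips, was at 294, 249, 305 and 335 CPM in Ctrl mice and at 310, 289, 469 and 390 CPM in KO mice, a log2 difference of 0.30 ± 0.16. Anks4b, the ankyrin-repeat scaffold that joins harmonin and the motor, was at 59.4, 62.0, 67.0 and 80.0 CPM in Ctrl mice and at 62.6, 77.6, 110 and 95.6 CPM in KO mice, a log2 difference of 0.37 ± 0.17. For both genes KO mice 1 and 2 were within the Ctrl range and KO mice 3 and 4 above it.

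Tprn was the member with the least spread between KO mice, with a coefficient of variation of 4.98%. It was at 72.1, 73.6, 65.2 and 67.8 CPM in Ctrl mice and at 88.3, 99.3, 94.2 and 91.4 CPM in KO mice, a log2 difference of 0.42 ± 0.07. It was the only member with every KO mouse above every Ctrl mouse, which held for 2.17% of all genes tested.

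**Figure D2:**
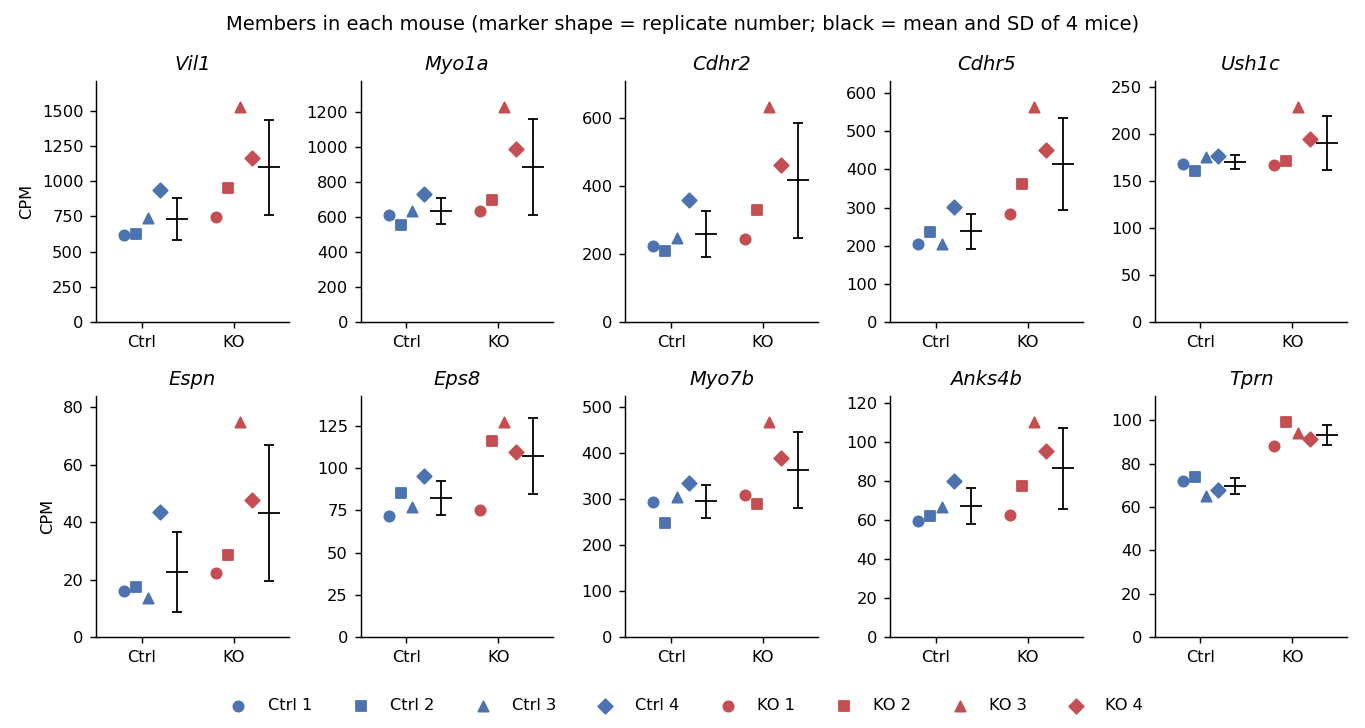
CPM of each member in each mouse, with 1 panel per gene, the axis from 0, marker shape for the replicate number, and mean ± SD of the 4 mice of each genotype in black. KO mouse 3 (red triangle) and Ctrl mouse 4 (blue diamond) are the highest of their genotype in all panels but Tprn, the only panel without overlap between the genotypes.

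All 10 members had a higher fitted level in KO than in Ctrl mice, with a median log2 difference of 0.45, beside a median of -0.02 over all genes tested, of which 46.1% were higher in KO. The members were chosen on this contrast, so nothing is read from these values and no call of a member is given.

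The members varied together within each genotype, which is not a comparison of KO with Ctrl. In Ctrl mice, mouse 4 had the highest CPM for 9 of the 10 members, a place it held for 23.1% of all genes tested. In KO mice, mouse 3 was highest for 9 members (27.6% of all genes) and mouse 1 was lowest for 9 (30.3% of all genes). Tprn was the exception to both highest places, with its maximum in Ctrl mouse 2 and KO mouse 2, and Myo7b was the exception to the lowest place, with its minimum in KO mouse 2. Summed over the members, Ctrl mice were at 2345, 2276, 2533 and 3132 CPM and KO mice at 2632, 3122, 5059 and 4001 CPM, so Ctrl mouse 4 and KO mouse 2 had nearly the same total. The 10 genes share their libraries and their depth, so they are not 10 independent observations of a mouse.

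Mice of the same replicate number were also set side by side. In pair 1 the median log2 ratio of KO to Ctrl over the members was 0.10 and 9 of 10 were higher in KO, the exception being Ush1c at -0.01. In pairs 2, 3 and 4 all 10 were higher in KO, with medians of 0.44, 0.84 and 0.29. The median over all genes lay between -0.01 and 0.00 in each pair. Pair 3 held the highest ratio of the 4 for every member, from 0.38 for Ush1c to 2.44 for Espn, whereas the 4 ratios of Tprn stayed between 0.29 and 0.53. In pair 4, where the Ctrl mouse was the highest of its genotype, Cdhr5 led with 0.58 and Espn was last with 0.13. Without KO mouse 3 the median difference over the members was 0.34 and all 10 remained above 0. The fitted differences of 7 members moved by more than 1.5 times without that mouse, to 0.39 for Vil1, 0.29 for Myo1a, 0.41 for Cdhr2, 0.06 for Ush1c, 0.52 for Espn, 0.16 for Myo7b and 0.23 for Anks4b. Those of Cdhr5, Eps8 and Tprn moved by less than that with any 1 mouse left out.

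**Figure D3:**
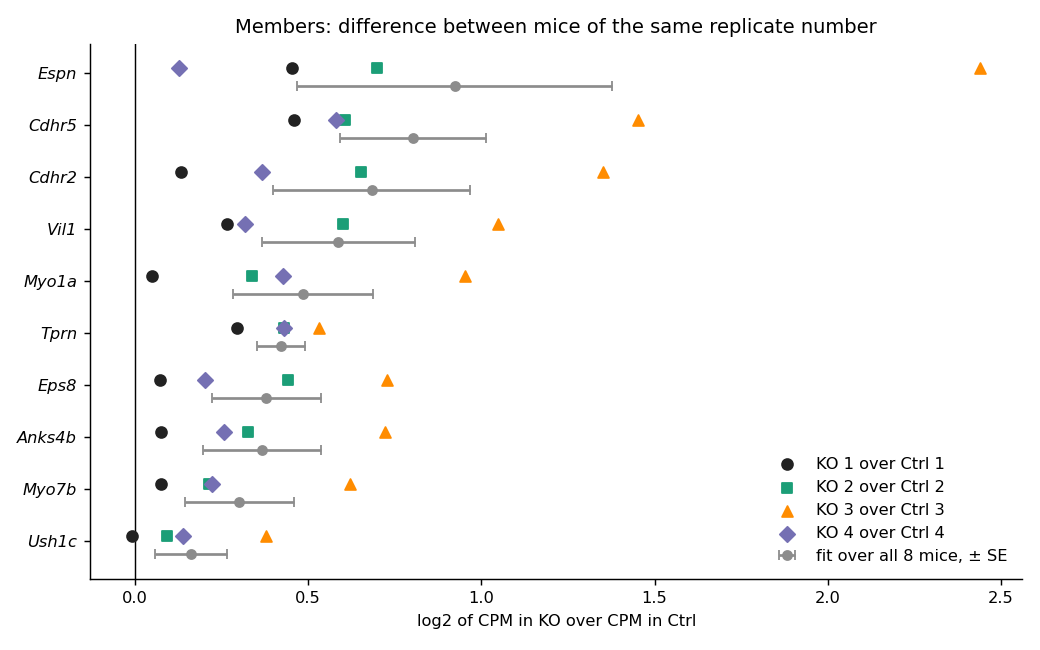
Log2 ratio of CPM in KO over Ctrl for the mice of each replicate number (coloured markers) and the fitted difference over all 8 mice with its SE (grey), 1 row per member. Pair 3 lies farthest to the right in each row and pair 1 lies near 0 for Myo1a, Eps8, Myo7b, Anks4b and Ush1c.

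Within the adhesion complex the parts did not keep a fixed proportion from mouse to mouse. Ratios were taken from the deposited FPKM of the same mouse and are thus per length. The ratio of Cdhr5 to Ush1c was 1.72, 2.08, 1.65 and 2.40 in Ctrl mice and 2.37, 2.97, 3.46 and 3.26 in KO mice. Its mean was 1.96 ± 0.350 (SD, n = 4) in Ctrl and 3.02 ± 0.475 in KO, and the ranges met between Ctrl mouse 4 and KO mouse 1. The ratio of Cdhr2 to Ush1c was 1.42 ± 0.323 in Ctrl and 1.99 ± 0.528 in KO, highest in Ctrl mouse 4 (1.90) and KO mouse 3 (2.58). The motor and the second scaffold moved more closely with Ush1c, with ratios of 1.01 ± 0.0809 and 1.10 ± 0.0955 for Myo7b and of 0.388 ± 0.0417 and 0.445 ± 0.0526 for Anks4b. Between the 2 protocadherins the ratio of Cdhr5 to Cdhr2 was 1.40 ± 0.212 in Ctrl and 1.55 ± 0.180 in KO. The ranges of Ctrl and KO mice overlapped for each of these ratios.

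Other genes of the brush border were taken from 6 lists with 93 genes between them, 82 of which passed the filter. At the study's threshold, an unadjusted p under 0.05 (edgeR quasi-likelihood test), 17 were higher and 1 lower in KO, beside 5.33% and 3.05% of all genes, and at a Benjamini-Hochberg adjusted p under 0.05 edgeR called 0 and DESeq2 2, with Krt8 among them, beside 0.00621% of all genes for edgeR, which is Mex3a alone, and 0.578% for DESeq2. With the replicate block the counts were 24 and 3, beside 7.14% and 4.13%. The median log2 difference of the 82 genes was 0.11. In 4 of them every KO mouse was above every Ctrl mouse and in 1 below, beside 2.17% and 1.87% of all genes. The count of 17 fell to 9 without Ctrl mouse 1 or Ctrl mouse 2, to 10 without Ctrl mouse 3 or KO mouse 4, and to 5 without KO mouse 3.

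Of 23 genes for the actin bundle, membrane linkers and tip factors, 8 were called higher and 0 lower, with a median log2 difference of 0.21. With the replicate block 10 were called higher and 2 lower, the latter being Vill, a villin-like gene, at -0.63 ± 0.21 (edgeR, unadjusted p = 0.0194) and Lcp1, the plastin of leukocytes, at -0.24 ± 0.09 (unadjusted p = 0.03), both named after their values were seen. Pls1, the plastin that bundles actin beside villin and espin, was at 138, 157, 173 and 263 CPM in Ctrl mice and at 213, 281, 526 and 348 CPM in KO mice. Its log2 difference was 0.90 ± 0.29 (edgeR, unadjusted p = 0.011, adjusted p = 0.518), with the same highest mice as the members. Pdzk1 and Slc9a3r1, PDZ scaffolds under the apical membrane, had log2 differences of 1.86 ± 0.63 (edgeR, unadjusted p = 0.0155) and 0.75 ± 0.32 (unadjusted p = 0.0421). Ezr, the ezrin that ties membrane to actin, missed the threshold at 0.58 ± 0.26 (edgeR, unadjusted p = 0.0525) and passed it with the replicate block (unadjusted p = 0.0064).

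Relatives of the members act at the microvillus tip as well. Eps8l3 and Eps8l2, paralogs of Eps8, were at 59.2 and 12.8 FPKM in Ctrl mice against 6.60 FPKM for Eps8 (17.8 with the length of its longest coding transcript), and their log2 differences were 0.21 ± 0.09 (edgeR, unadjusted p = 0.0485) and 0.46 ± 0.23 (unadjusted p = 0.0725). With the replicate block the calls were exchanged, at an unadjusted p of 0.0521 for Eps8l3 and 0.0481 for Eps8l2 (edgeR). Baiap2l1, which bends membrane into protrusions, was at 83.5 to 85.1 CPM in Ctrl mice and 88.4 to 112 CPM in KO mice without overlap, a log2 difference of 0.21 ± 0.08 (edgeR, unadjusted p = 0.0324). Baiap2l2, its relative, was at 144 FPKM in Ctrl mice and had a log2 difference of 0.14 ± 0.09 (edgeR, unadjusted p = 0.172). Cobl, an actin nucleator, was at 0.49 ± 0.33 (edgeR, unadjusted p = 0.172).

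Of 16 brush border myosins and light chains, 4 were called higher, with a median of 0.13. Myo1d, the class I myosin that accompanies Myo1a, had a log2 difference of 0.35 ± 0.12 (edgeR, unadjusted p = 0.013). Calml4, the light chain of MYO7B and a part of the adhesion complex, had a log2 difference of 0.08 ± 0.13 (edgeR, unadjusted p = 0.531). Myo5b, the motor of apical recycling endosomes, was at 0.23 ± 0.09 (edgeR, unadjusted p = 0.0319), and Myo6, the endocytic motor at the base of microvilli, at 0.09 ± 0.09 (unadjusted p = 0.337).

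In the terminal web, the meshwork in which the microvilli are rooted, 3 of 14 genes were called higher and 0 lower, with a median of 0.07, and all 3 were keratins. With the replicate block 4 were called higher and 0 lower. Krt20, the keratin of mature enterocytes, was at 116, 143, 131 and 338 CPM in Ctrl mice and at 212, 374, 542 and 379 CPM in KO mice. Ctrl mouse 4 and KO mouse 3 were again the highest, and the log2 difference was 1.05 ± 0.38 (edgeR, unadjusted p = 0.021). Krt8, which pairs with the keratins of the type I class in simple epithelia, did not overlap, at 2932 to 3207 CPM against 3486 to 4052 CPM, a log2 difference of 0.27 ± 0.09 (edgeR, unadjusted p = 0.0145, DESeq2 adjusted p = 0.038). Krt19 did not overlap either, at 1950 to 2155 CPM against 2319 to 2454 CPM, a log2 difference of 0.20 ± 0.08 (edgeR, unadjusted p = 0.0334).

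Of 14 genes for apical delivery and polarity kinases, 2 were called higher and 0 lower, with a median of 0.08, and with the replicate block 4 were called higher and 0 lower. Stx3, the apical SNARE, had a log2 difference of 0.29 ± 0.12 (edgeR, unadjusted p = 0.0385). Stxbp2, its chaperone, was higher in every KO mouse (119 to 125 CPM) than in every Ctrl mouse (111 to 118 CPM), but its log2 difference of 0.09 ± 0.06 did not pass (edgeR, unadjusted p = 0.147).

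The calls of the named genes of these lists were checked with each mouse left out in turn. Pls1, Myo1d and Krt8 kept an unadjusted p under 0.05 (edgeR) each time. Pdzk1 lost it without KO mouse 3 (log2 difference 1.19), and Krt20 without KO mouse 3 or any of Ctrl mice 1, 2 and 3. Slc9a3r1 lost it without KO mouse 3 (0.46), KO mouse 4 or any of Ctrl mice 1, 2 and 3. Baiap2l1 lost it without KO mouse 2 (0.14), KO mouse 3 or any Ctrl mouse, and Eps8l3 without KO mouse 2, 3 (0.14) or 4 or Ctrl mouse 2, 3 or 4. The calls of Myo5b, Stx3 and Krt19 were lost without KO mouse 2, 3 or 4, Myo5b also without Ctrl mouse 2 or 4, Stx3 without Ctrl mouse 1, 2 or 3, and Krt19 without Ctrl mouse 1, 2 or 4. Of the genes that passed with the replicate block only, Ezr was at 0.33 and Eps8l2 at 0.25 without KO mouse 3, and Klf4, a transcription factor, at 0.25 without Ctrl mouse 2.

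Of 19 counterparts in hair cell stereocilia, 8 passed the filter in these crypts, and at an unadjusted p under 0.05 edgeR called 0 in either direction, 2 higher with the replicate block, and DESeq2 called 0 after adjustment. Cdh23, whose protein forms the tip link with protocadherin-15, was at 0.0388 to 0.710 CPM over the 8 mice. Pcdh15 was at 0 in all mice but KO mouse 4, and Ush1g, the scaffold at the place that ANKS4B takes in the gut, was at 0 in every Ctrl mouse. A count of 0 allows up to 3 reads, which is 0.0997 to 0.146 CPM in these libraries. Myo7a, the stereocilia motor related to Myo7b, was present at 6.41 FPKM in Ctrl mice. The ratio of Myo7b to Myo7a in FPKM was 7.33 ± 2.55 (SD, n = 4) in Ctrl and 7.25 ± 2.20 in KO mice. Whrn, a relative of harmonin, had a log2 difference of -0.21 ± 0.10 (edgeR, unadjusted p = 0.0517).

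Of 9 transcription factors of the enterocyte programme, edgeR called 0 in either direction at an unadjusted p under 0.05, 1 higher with the replicate block, and DESeq2 called 0 after adjustment. Hnf4a and Hnf4g, nuclear receptors that switch on brush border genes, had log2 differences of -0.04 ± 0.09 (edgeR, unadjusted p = 0.64) and 0.17 ± 0.21 (unadjusted p = 0.442). Cdx2, the intestinal homeobox factor, was at 0.09 ± 0.10 (edgeR, unadjusted p = 0.408) and Srf, which binds CArG boxes, at 0.16 ± 0.10 (unadjusted p = 0.161). Klf4, the zinc finger factor on which the study turned, was at 94.6, 59.4, 93.0 and 124 CPM in Ctrl mice and at 104, 107, 141 and 141 CPM in KO mice. Its log2 difference of 0.41 ± 0.20 passed with the replicate block only (edgeR, unadjusted p = 0.0749 without it and 0.0116 with it).

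**Figure D4:**
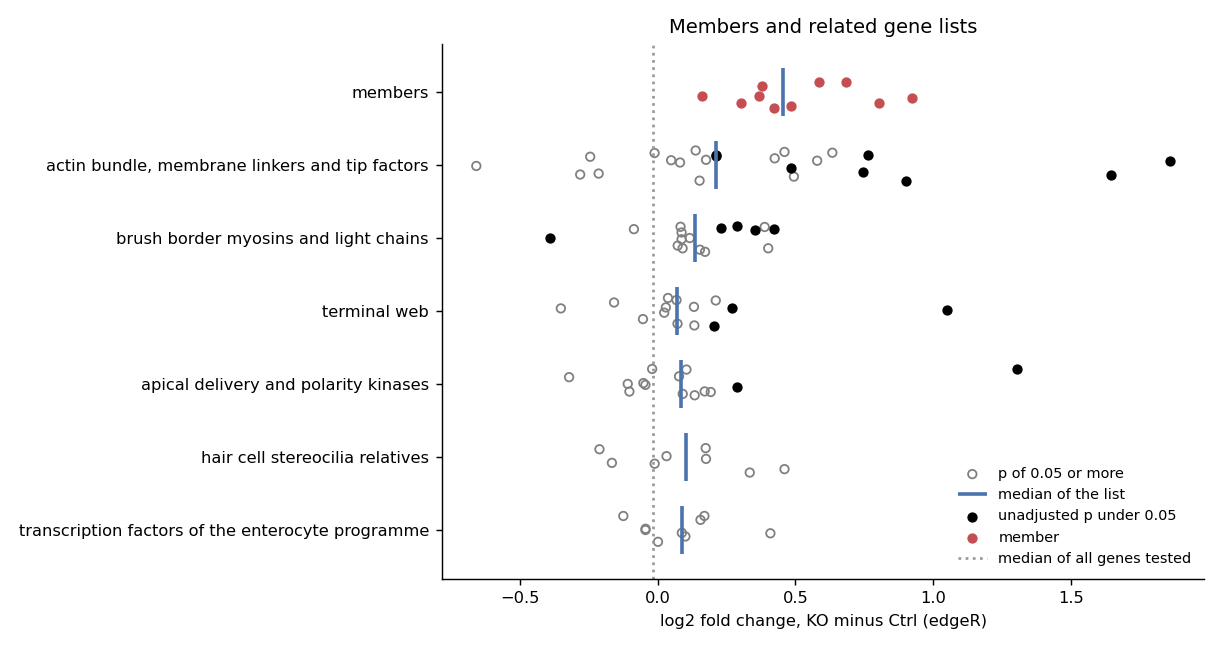
Log2 fold change between KO and Ctrl of the members (red) and of the tested genes of 6 related lists, filled where edgeR's unadjusted p was under 0.05, with each list's median (blue) and the median of all genes tested (dotted). Each list has genes on both sides of 0 except the members, which were chosen on this axis.

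The enterocyte and immune marker lists were highest in the same mice as the members. The summed level of 12 enterocyte markers was 2565 to 5683 CPM in Ctrl mice, highest in mouse 4, and 3736 to 13600 CPM in KO mice, highest in mouse 3. All 12 had a higher fitted level in KO and 4 were called (edgeR, unadjusted p under 0.05; 7 with the replicate block), with a median log2 difference of 0.92. The 5 markers of ileum were all called higher, with or without the block, with summed levels of 254 to 760 CPM against 806 to 1695 CPM. Of 7 immune markers 3 were called higher (4 with the block), with sums of 19.5 to 49.5 CPM in Ctrl mice, highest in mouse 4, and 33.4 to 93.1 CPM in KO mice, highest in mouse 3. Their part in the differences of the members was not tested.

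Other lists moved less or in the opposite direction. Of the 6 stem cell markers 4 were called lower and 0 higher, with or without the block. Every KO sum was below every Ctrl sum, but most of that sum was Olfm4. Taken singly, only Olfm4 and Smoc2 had every KO mouse below every Ctrl mouse, which held for 1.87% of all genes tested. Of the 6 goblet cell markers 2 were called higher (4 with the block), with sums of 3997 to 5867 CPM against 5295 to 7669 CPM. Of 6 Paneth, 6 proliferation and 5 tested tuft cell markers edgeR called 0 at an unadjusted p under 0.05, with 1 Paneth and 2 tuft cell markers called lower with the replicate block and 0 by DESeq2 after adjustment. Enteroendocrine markers had 1 of 6 called higher (0 with the block), proximal small intestine 1 of 5 higher and 1 lower (1 and 2 with the block), and erythroid 1 tested and called lower (also with the block). The 5 tested stromal markers and the 2 tested of colon had 0 called by edgeR, with or without the block, and 0 by DESeq2 after adjustment, with stromal sums of 11.3 to 19.2 CPM against 13.5 to 20.2 CPM and the colon marker Hoxb13 at 0 in every mouse. The highest mice of Tprn were other ones than those of the enterocyte, ileum and immune sums: they were Ctrl mouse 2 and KO mouse 2, where the enterocyte sum was 2565 and 4577 CPM.

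**Figure D5:**
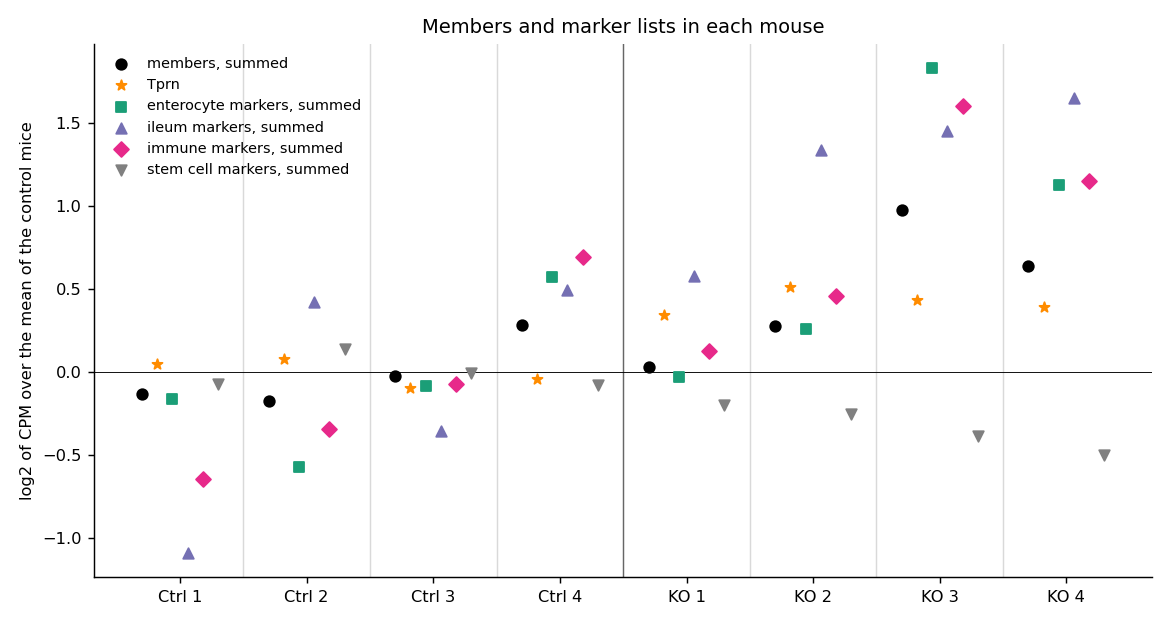
Log2 of CPM over the mean of the Ctrl mice, for the summed members, Tprn and 4 summed marker lists, in each of the 8 mice. The members, the enterocyte and the immune markers are highest in Ctrl mouse 4 within Ctrl and in KO mouse 3 within KO, whereas Tprn lies in a narrow band within each genotype.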

How the data were processed

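RNA-seq of crypts from 4 KO and 4 Ctrl mice was analysed, grouped by the sample titles. The deposited table holds raw counts of reads on each gene and the authors' FPKM values for the same genes, whose gene lengths for the 10 members equal the GENCODE M21 exon union. The submitters' processing notes name CASAVA, HISAT2 2.0.5 and featureCounts 1.5.0-p3, and the genome build is not given in the sources used here. Deposited columns with the authors' own fold changes, p-values and group means were not used, and 0 sample columns were left unassigned.

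Counts were analysed with edgeR 4.0.16 in R 4.3.3 (filterByExpr with a minimum count of 10, TMM factors, quasi-likelihood test, genotype as the only term, Benjamini-Hochberg adjustment over 16109 genes). The common biological coefficient of variation was 0.237. Alternatives were DESeq2 1.42.0, upper-quartile or RLE factors, all genes with a count, at least 10 counts in every mouse, limma 3.58.1 on log2(FPKM + 1) for genes with a mean FPKM of at least 0.5, the replicate block, each mouse left out, replicates 1 and 2 or 3 and 4 alone, and, added after the values were seen, FPKM rescaled to the longest coding transcript. Tables and figures were made with Python 3.11.15, pandas and matplotlib. Promoter windows were from RefSeq on GRCm38.p6, searched on both strands with overlapping matches allowed. Eps8 and Myo7b had no window.

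The members and lists were chosen with earlier results of these data known. The other genes named are a written selection from the 6 lists, plus up to 4 per list that had no overlap between genotypes, an unadjusted p under 0.05, mean log2 CPM from 1 up and the largest fold changes, which added Krt8 and Krt19. One gene that the rule also gave is not reported here. No pair of libraries of a genotype was alike within counting error (chi-square divided by its degrees of freedom, 24.2 to 89.7). The controls were littermates, but no source says that a replicate number marks a litter. After subtraction of the genotype means, mice that share a number correlated at 0.137, 0.58, 0.135 and 0.336 over all genes in the 4 pairs (0.102, 0.57, 0.0871 and 0.299 over autosomal genes). No such correlation was taken between mice of different numbers, so whether the numbers pair the mice is not settled. The replicate block was therefore run as an alternative. Differences, errors and p-values are from the fit without the block, and the value with the replicate block is added where it changes a call.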

Additional observations from a re-analysis of the deposited data

Results flagged for a closer look

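In 3 of 76 groups of 4 mice examined, 1 mouse lay far from the other 3, with a gap to its nearest neighbour above Dixon's critical value as a share of the group's range. Chance gives about 1 in 20 groups, or 3.8. Espn in Ctrl mice had a gap of 0.873 of the range, from Ctrl mouse 4 at 43.6 CPM to the next at 17.6 CPM. Krt20 in Ctrl mice had a gap of 0.881, also from Ctrl mouse 4. Krt19 in KO mice had a gap of 0.879, from KO mouse 3. The mice were kept in all results.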

How the results depend on the processing

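The members were chosen on this contrast and each alternative reuses the same mice, so their values here are a description only. Each of the 10 members kept a difference above 0 in all 17 alternatives, 170 values in all. Their median log2 difference was 0.43 with the replicate block, 0.33 in replicates 1 and 2, 0.58 in replicates 3 and 4, and between 0.34 and 0.57 with 1 mouse left out. Over all genes, 1350 passed an unadjusted p under 0.05, 1815 with the replicate block, 661 in replicates 1 and 2, 2232 in replicates 3 and 4, and 846 to 2133 with 1 mouse left out. After adjustment the count of 1 became 93 with DESeq2, 2 with no filter, 4 in replicates 3 and 4, 0 in replicates 1 and 2, with the replicate block and with at least 10 counts in every mouse (where Mex3a left the test), and 0 to 4 with 1 mouse left out. The other brush border genes higher in KO numbered 17, 8 in replicates 1 and 2, and 5 to 22 with 1 mouse left out. In replicates 1 and 2, Baiap2l2 (-0.048), Cobl (-0.11), Myo7a (-0.11) and Hnf4g (-0.10) turned below 0, and with 1 mouse left out Hnf4a ran from -0.080 to 0.028, above 0 without Ctrl mouse 3. The fit with the replicate block changed, besides the list counts given above, the calls of 4 genes chosen by name: Ezr, Klf4 and Eps8l2 passed, and Eps8l3 did not. The causes were not tested. Vil1 stood at 47.4 times Espn with the length of the longest coding transcript, and at 65.7 to 97.2 times with 1 Ctrl mouse left out.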
